A study of Mus musculus with 8 samples.

Results

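The 43 genes described here are genes of mitosis and of the G2/M transition, chosen by symbol from a list, and all 43 were found among the 24062 genes of the count table and among the 13197 genes that passed the filter on low counts and were tested. They were measured by RNA-seq of total RNA in cultures of immature myeloid cells (IMCs) that had been grown out of marrow from C57BL/6 mice aged 2 months during 3 days in M-CSF at 40 ng/mL, the growth factor that drives bone marrow cells to divide and to become macrophages and osteoclast precursors. The 8 libraries fall into 4 groups of 2. PARP1 WT cells carried PARP1 flox/flox and no Cre, PARP1CKO cells carried PARP1 flox/flox with lysozyme-Cre, PARP2 WT cells carried PARP2 flox/flox and no Cre, and PARP2CKO cells carried PARP2 flox/flox with lysozyme-Cre. The floxed gene differs between the lines, and M-CSF was given to every group. Lysozyme-Cre acts in the myeloid lineage, and neither control carries it, so that an effect of Cre and an effect of the deletion cannot be told apart. The mouse line and the targeted gene likewise cannot be told apart. The labels do not say whether libraries of a group came from separate mice, so p-values measure only the spread between these libraries, which may be technical.

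A dividing cell makes most of these transcripts late in the cycle. Cyclin B and Cdk1 start mitosis, the Plk1 and Aurora kinases build the spindle, kinetochore proteins attach chromosomes to it, and the spindle assembly checkpoint holds back the anaphase-promoting complex until all chromosomes are attached. Between divisions the genes are kept low by the DREAM complex, which binds a promoter element called the cell cycle genes homology region (CHR), and B-Myb and FoxM1 activate them in G2 with the help of NF-Y, which binds CCAAT boxes. Since the transcripts are made in G2 and mitosis, their level in a culture is widely read as a sign of how many cells are dividing. In bulk RNA, fewer dividing cells and less RNA of these genes per dividing cell cannot be told apart.

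Library totals lay between 37852450 and 61845125 counts, of which the 43 genes together took between 172171 and 242749. Levels are given as CPM, the count scaled to the depth of the library with edgeR's TMM factors. Parp1 had 202 and 211 CPM in PARP1 WT against 63.2 and 59.1 in PARP1CKO, with a log2 fold change of -1.75 and an adjusted p of 0.0134 (edgeR's quasi-likelihood test, adjusted by the method of Benjamini and Hochberg over all genes, as are all adjusted p given here unless another test is named). Parp2 had 48.2 and 48.3 CPM in PARP2 WT against 25.7 and 25.6 in PARP2CKO (log2 fold change -0.91, adjusted p = 0.000139 in the same test). Of 3 markers of the labelled cell type, 2 have values here. Itgam, which encodes CD11b, lay between 881 and 1035 CPM and Ly6c2, one of the Gr1 antigens, between 53.9 and 72.2 CPM in the 8 libraries, whereas Ly6g, the other Gr1 antigen, was not analysed here. In PARP2CKO against PARP2 WT 1 of the 2 was lower (log2 fold change -0.24, unadjusted p under 0.05 in the same test) and 1 higher (0.05). Both were lower in PARP1CKO (-0.12 and -0.07). Both were higher in PARP2 WT against PARP1 WT (0.05 and 0.21), 1 of them with an unadjusted p under 0.05 in that test. Neither passed an adjusted p of 0.05.

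Mitotic transcripts were abundant in all 4 groups. Compared per length, as CPM per kilobase of exons, the genes had a median level of 16.1, and 39 of the 43 lay above the median of all tested genes of 5.36. Mki67, which codes for the proliferation antigen Ki-67, had the highest level at 74.2 CPM per kilobase as a mean over the 8 libraries. It was followed by Incenp at 46.9, Cks2 at 45.6, Ccna2 at 40.1 and Top2a at 35.8 CPM per kilobase. The lowest levels were those of Cdc25c at 2.39, Cenpf at 4.22, Ttk at 4.59 and Cenpa at 5.34 CPM per kilobase. Neighbors in this order often had libraries that overlapped, as with Incenp and Cks2 or with Top2a, Smc4 and Ccnb2, while Mki67 lay above every other gene in all 8 libraries. The genes had a median range of 0.22 on the log2 CPM scale from the lowest to the highest of the 8 libraries, against 0.28 for all genes tested, and 36.8% of all genes had a smaller range than that median. Cdk1 varied least with a range of 0.11, and Bub1b, a kinase-like protein of the spindle checkpoint, varied most with a range of 0.42.

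**Figure D1:**
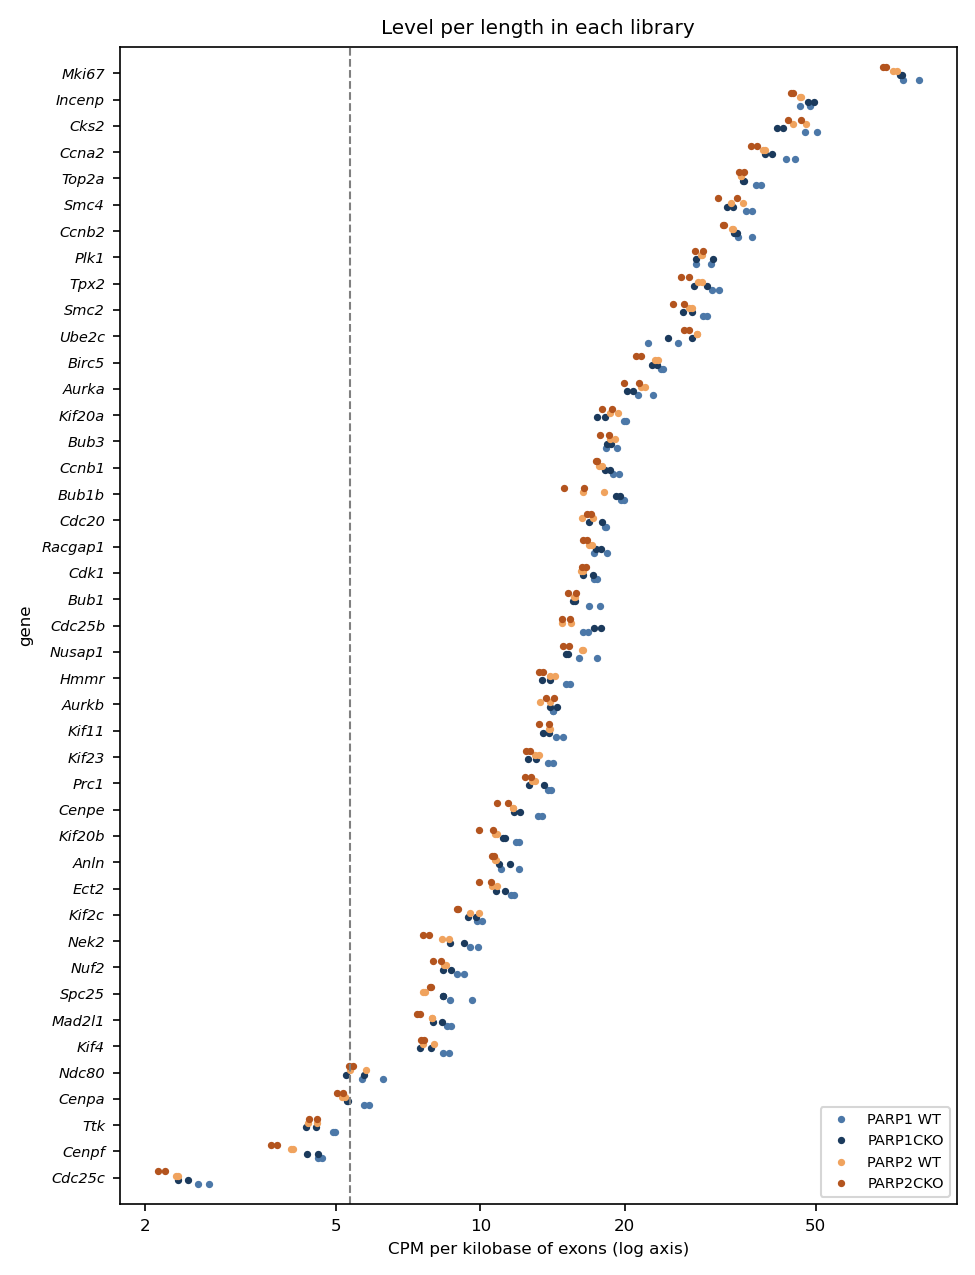
Level of each of the 43 genes in CPM per kilobase of exons (log axis), with 1 point per library and the groups in color, ordered by the mean over the 8 libraries. The dashed line is the median of all tested genes, 5.36 CPM per kilobase, and 39 of the 43 genes have a mean above it.

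Promoters in the RefSeq table (GRCm38.p6) matched 36 of the 43 genes. A search of both strands from 250 bases before to 50 bases after the annotated start found a CHR element (TTTGAA, which is TTCAAA on the other strand, or TTTAAA, which reads the same on both) in 29 of the 36, or 80.6%, against 27.8% of 27025 promoters in the table and 19.2% of the 9800 that belong to tested genes. A CCAAT box (ATTGG on the other strand) was found in 28, or 77.8%, against 37.9% of all promoters and 38.9% of those of tested genes. Both kinds of match occurred together in 24 of the 36, or 66.7%, against 10.9% and 7.79%. In 26 of the 36 a CHR element lay within 50 bases of the start, against 8.24% of all promoters, and these 32 matches had a median position of 8.5. Over the whole window the median position was -1 for the 44 CHR matches and -65 for the 64 CCAAT boxes, for which no comparison with other promoters was made. No match of either kind was found in Mad2l1, Nuf2 and Nusap1. The GENCODE M21 start of Mad2l1 lies 169 bases after the RefSeq start and outside the window searched, and the outermost GENCODE starts of Kif2c and Kif4 also lie outside their windows. These are matches of letters in a window, and they do not show that a factor binds.

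The sequences that follow are from genes whose levels are described here and show how the matches differ between promoters. They are given as the 150 bases before the RefSeq start read 5′ to 3′ on the strand of the gene, with CCAAT boxes and CHR elements of either strand in capitals. Ccnb2 (chr9:70421555-70421704, - strand), Cks2 (chr13:51645082-51645231, + strand), Cenpf (chr1:189688087-189688236, - strand) and Hmmr (chr11:40733438-40733587, - strand) hold at least 2 CCAAT boxes each. Top2a (chr11:99024190-99024339, - strand) holds CCAAT boxes upstream of a CHR element within the bases shown, while in Mki67 (chr7:135716380-135716529, - strand) a CCAAT box lies upstream of 2 CHR elements. Nuf2 (chr1:169531465-169531614, - strand), where both annotations place the start at the same base, is shown as a promoter with no match. No base printed lies in an annotated exon of GENCODE M21.
Ccnb2: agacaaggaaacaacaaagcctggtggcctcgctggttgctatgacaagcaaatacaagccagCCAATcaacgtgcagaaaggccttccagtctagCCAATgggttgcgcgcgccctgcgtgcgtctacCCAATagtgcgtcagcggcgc
Cks2: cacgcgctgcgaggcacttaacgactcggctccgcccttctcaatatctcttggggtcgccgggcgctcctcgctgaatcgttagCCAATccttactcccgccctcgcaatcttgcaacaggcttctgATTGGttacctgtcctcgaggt
Cenpf: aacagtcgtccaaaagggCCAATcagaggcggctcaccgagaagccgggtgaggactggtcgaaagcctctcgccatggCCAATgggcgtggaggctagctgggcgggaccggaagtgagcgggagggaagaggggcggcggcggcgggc
Hmmr: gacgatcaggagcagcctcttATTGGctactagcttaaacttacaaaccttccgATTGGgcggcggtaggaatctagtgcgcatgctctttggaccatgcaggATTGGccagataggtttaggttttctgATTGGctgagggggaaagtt
Top2a: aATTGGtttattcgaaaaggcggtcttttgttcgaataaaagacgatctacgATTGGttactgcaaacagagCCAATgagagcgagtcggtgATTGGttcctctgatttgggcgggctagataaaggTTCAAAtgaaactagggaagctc
Mki67: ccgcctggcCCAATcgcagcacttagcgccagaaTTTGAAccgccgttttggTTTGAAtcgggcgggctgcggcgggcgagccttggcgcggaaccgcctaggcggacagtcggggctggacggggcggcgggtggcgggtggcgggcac
Nuf2: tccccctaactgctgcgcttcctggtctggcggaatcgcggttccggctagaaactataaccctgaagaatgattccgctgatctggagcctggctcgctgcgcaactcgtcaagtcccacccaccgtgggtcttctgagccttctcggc
In Ccnb2, Cenpf and Hmmr a CHR element lies just after the start and outside the bases shown, at positions 5, 3 and 9. Cks2 had no CHR element in its window.

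**Figure D2:**
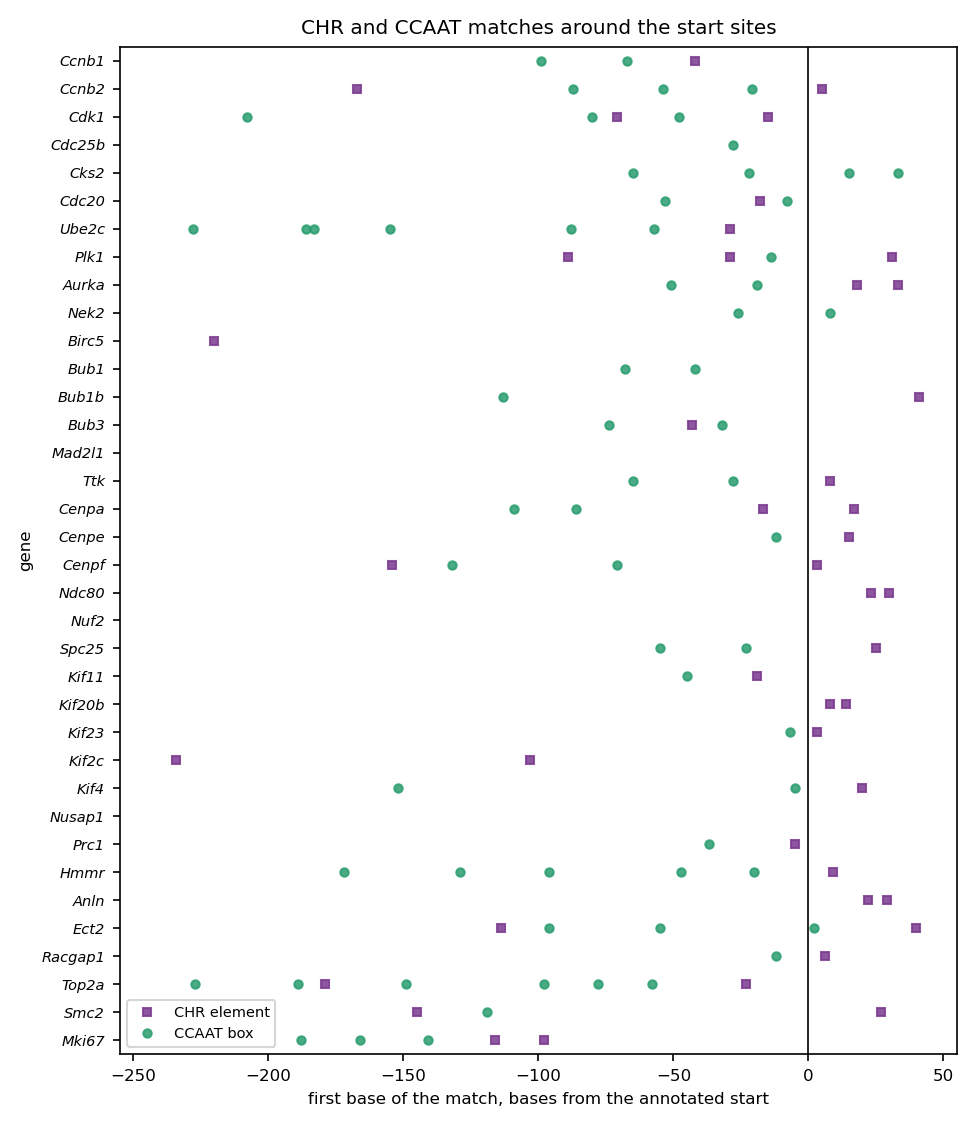
Position of each CHR element (squares) and CCAAT box (circles) relative to the annotated start in the 36 promoters, in bases. The median position over all matches is -65 for CCAAT boxes and -1 for CHR elements, in a window from 250 bases before to 50 after the start.

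To ask whether the loss of PARP1 altered mitotic gene expression, PARP1CKO cells were compared with PARP1 WT cells. The fold changes lay slightly below 0 in most of the genes, with a median of -0.09 on the log2 scale, or -6.19%, against 0.01 for all genes tested. Of the 43, 38 had a fold change below 0, against 47.9% of all genes, and in 33 both PARP1CKO libraries lay below both PARP1 WT libraries, against 20.2% of all genes. In what follows, fold changes and SEs are on the log2 scale and their 95% intervals are given as percent changes, whereas intervals of a difference between effects are on the log2 scale. The values ran from -0.21 for Cks2 to 0.11 for Ube2c. None of the 43 passed an adjusted p of 0.05 in edgeR's quasi-likelihood test, which 0.106% of all genes did, and the lowest adjusted p was 0.261. None passed in DESeq2, where 0.754% of all genes did, or in edgeR's likelihood-ratio test, where 1.11% did. An unadjusted p under 0.05 was reached by 16 genes, all lower, against 5.15% of all genes in that direction. The 43 genes are transcribed together in the cycle, so that these counts are not 43 independent observations. Over all 43 genes the 95% intervals reached from -21.4% to 21.5%, so that larger changes in either direction lay outside every interval.

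In the comparison of PARP2CKO with PARP2 WT most fold changes also lay below 0. The median log2 fold change was -0.06, or -4.10%, against 0.00 for all genes, and values ran from -0.14 for Nek2 to 0.04 for Spc25. Below 0 lay 37 of the 43 genes, against 50.7% of all genes, and in 26 both PARP2CKO libraries lay below both PARP2 WT libraries, against 18.8% of all genes. None passed in edgeR's quasi-likelihood test (lowest adjusted p = 0.849; 0.053% of all genes passed), in DESeq2 (0.205% passed) or in the likelihood-ratio test (0.296% passed). Of the 43, 7 had an unadjusted p under 0.05, all lower, against 2.46% of all genes. The 95% intervals reached from -17.2% to 13.2%.

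The deletions were then set side by side, since the comparisons share no library. A fold change below 0 in both was found in 33 of the 43 genes, against 25.3% of all genes, and above 0 in both only in Aurkb, against 26.7%. Since 38 and 37 of the 43 lay below 0 in the comparisons taken singly, most of this overlap was fixed by those counts. It does not show that the deletions agree gene by gene. Cdc20, Cdk1, Spc25, Top2a and Ttk were below 0 in PARP1CKO alone, and Cdc25b, Incenp, Plk1 and Ube2c in PARP2CKO alone. With plain library size in place of TMM factors, Aurkb and Plk1 lay below 0 in PARP1CKO and Cdc20, Cdk1, Top2a and Ttk in PARP2CKO, where the median of all genes was -0.03. Only Nek2, Nusap1 and Tpx2 had an unadjusted p under 0.05 in both comparisons. The difference between the effects (PARP2CKO effect minus PARP1CKO effect) was tested in the same fit, and none of the 43 passed in it, against 0.0152% of all genes, with a lowest adjusted p of 0.654. None had an unadjusted p under 0.05, which 7.69% of all genes had, and none passed in DESeq2 (0.362% of all genes) or the likelihood-ratio test (0.546%). The median difference was 0.03, and 13 of the 43 lay below 0, against 52.2% of all genes. The median was 0.05 without PARP1 WT replicate 1, where 8 genes lay below 0, 0.0094 without PARP1CKO replicate 2, 0.016 without PARP2CKO replicate 2 and 0.012 with plain library size. The intervals of the difference reached from -0.42 to 0.37 on the log2 scale, which is wider than the effects themselves.

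**Figure D3:**
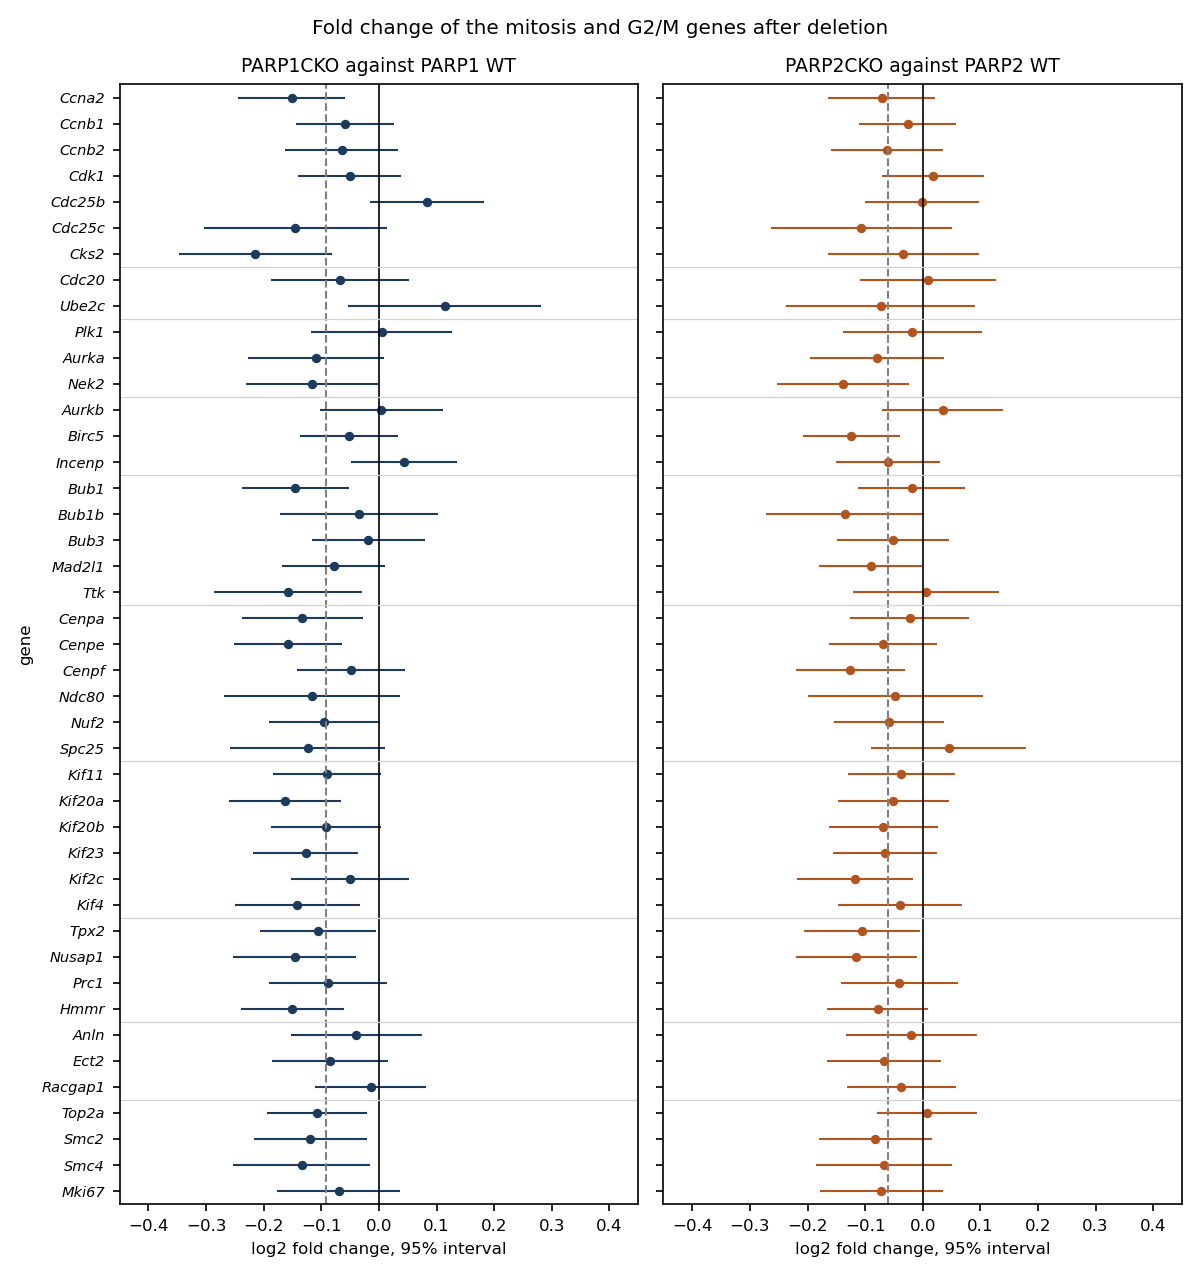
Log2 fold change of each of the 43 genes with its 95% interval from edgeR's quasi-likelihood fit, for PARP1CKO against PARP1 WT (left) and PARP2CKO against PARP2 WT (right), in the order of the roles described. The dashed lines are the medians of -0.09 and -0.06, and most intervals include 0.

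The share of raw counts also separated the groups. The 43 genes took 0.455% and 0.463% of all counts in the PARP1 WT libraries, 0.433% in each of PARP1CKO, 0.415% and 0.419% for PARP2 WT and 0.388% and 0.400% for PARP2CKO. The 4 groups did not overlap in this share, which uses no TMM factors and to which genes with many counts contribute most. In summed CPM of the 43 genes, the lower PARP1CKO library (4222) and the higher PARP2 WT library (4217) nearly met. By the median over the genes of log2 CPM minus the mean of the gene, PARP1CKO (0.02 and -0.02) and PARP2 WT (-0.01 and -0.02) overlapped. With 2 libraries a group, the smallest two-sided p that an exact permutation test can give is 0.333. The 2 control groups also differed from each other. PARP1 WT had the highest mean CPM of the 4 groups in 37 of the 43 genes, against 26.3% of all genes, and PARP2CKO the lowest in 33, against 29.9%. In PARP2 WT against PARP1 WT, a comparison that shares its libraries with those of the deletions, the median log2 fold change was -0.11, or -7.13%, with 41 of the 43 genes below 0, against 49.6% of all genes. Both PARP2 WT libraries lay below both PARP1 WT libraries in 34 genes, against 25.2% of all genes, and above them in Ube2c alone, against 26.7%. Cenpe and Cenpf passed the adjusted threshold, both lower, where 1.24% of all genes did so, and 26 genes were lower and Ube2c higher at an unadjusted p under 0.05, against 8.63% of all genes lower and 10.3% higher. DESeq2 called 2 of the 43 lower, Ccna2 and Cenpe, against 1.71% of all genes in that direction, and the likelihood-ratio test 5 lower, against 2.89%. A fit without the filter on low counts called 4 lower and Ube2c higher, against 4.97% of all genes in both directions together, and one with a replicate block called 0, against 2.39% in both directions. The calls of the main test crossed the threshold when single libraries were left out, although the log2 fold changes stayed between -0.20 and -0.17 for Cenpe and between -0.20 and -0.18 for Cenpf. A fit of the 4 control libraries alone called 0 of the 43 genes, against 2.98% of all genes in both directions together.

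**Figure D4:**
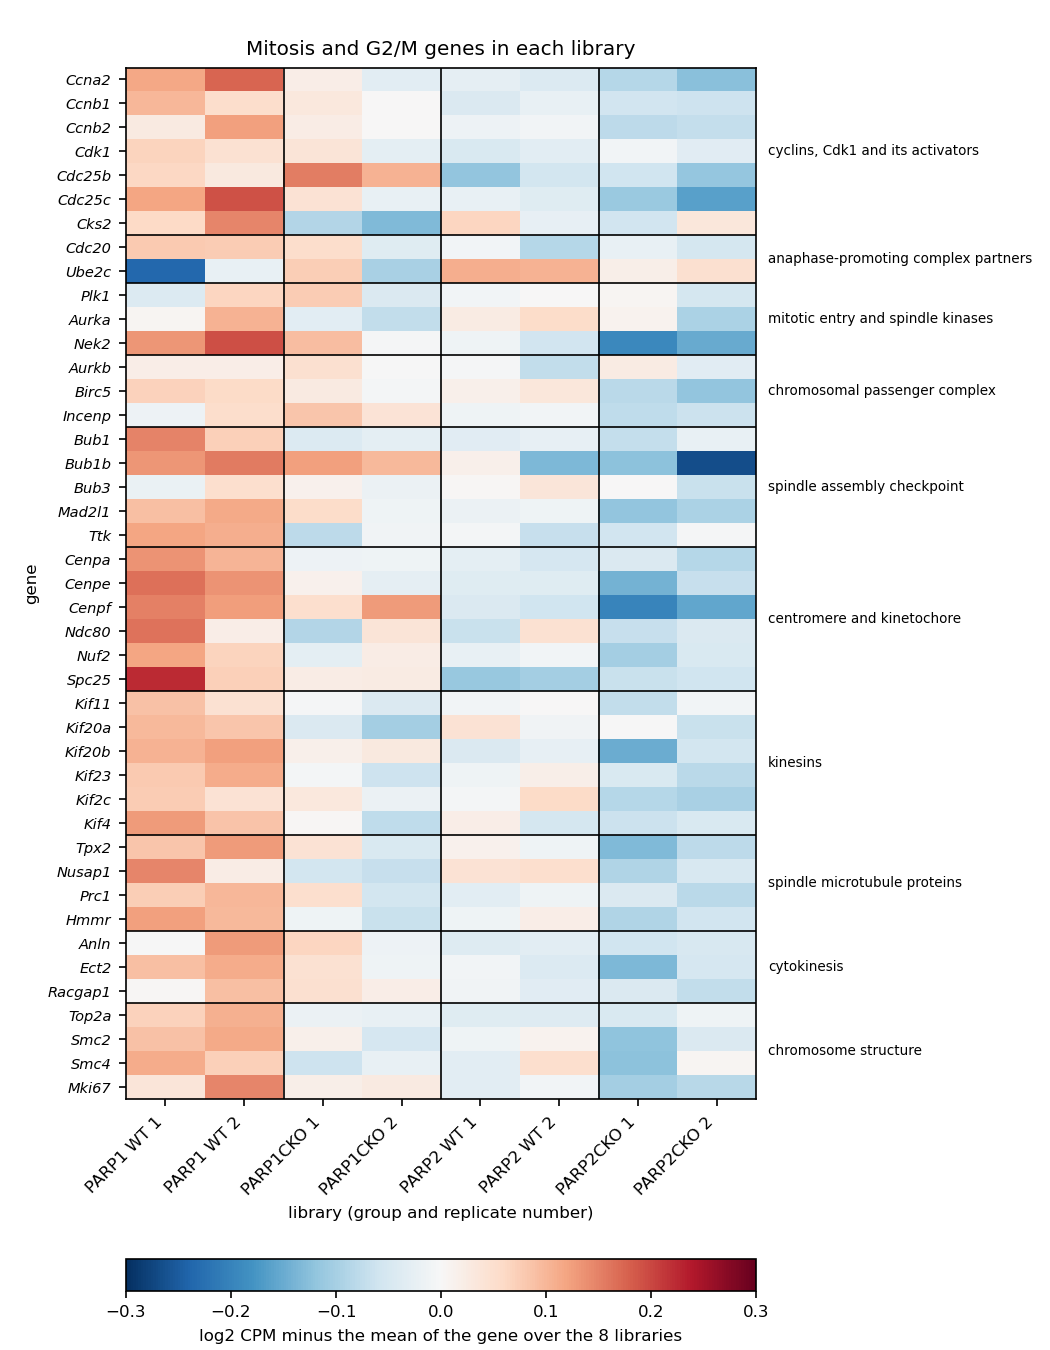
Log2 CPM of each of the 43 genes in the 8 libraries, minus the mean of the gene over the libraries, grouped by role. Red is above and blue below the mean of the gene, and the PARP1 WT columns are mostly red and the PARP2CKO columns mostly blue.

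Cyclins A and B bind Cdk1, the kinase that drives entry into mitosis, and Cdc25 phosphatases switch it on. Of the 7 genes of this role, 6 were below 0 in PARP1CKO and 6 in PARP2CKO, against 47.9% and 50.7% of all genes. Ccna2, cyclin A2, had 177 and 185 CPM in PARP1 WT against 166 and 160 in PARP1CKO, and 160 and 159 CPM in PARP2 WT against 154 and 150 in PARP2CKO. Each deletion had lower libraries than its control, and the PARP1 WT libraries stood highest. Its log2 fold change was -0.15 (standard error (SE) 0.041, 95% interval -15.6% to -3.99%, adjusted p = 0.277) in PARP1CKO, -0.07 in PARP2CKO and -0.18 (SE 0.041, 95% interval -17.2% to -5.86%, adjusted p = 0.0533) in PARP2 WT against PARP1 WT. Cks2, a small subunit that binds Cdk1, had 32.8 and 34.9 CPM in PARP1 WT against 29.6 and 28.7 in PARP1CKO, and 33.0 and 31.0 CPM in PARP2 WT against 30.3 and 32.2 in PARP2CKO. The PARP1CKO libraries lay below the other 6, whereas PARP2CKO overlapped with PARP2 WT. The log2 fold change of Cks2 in PARP1CKO, -0.21 (SE 0.059, 95% interval -21.4% to -5.53%, adjusted p = 0.279), was the lowest of the 43 genes, and it was -0.03 in PARP2CKO. The difference between the effects was 0.18 (SE 0.082, 95% interval -0.01 to 0.37, adjusted p = 0.654), with an unadjusted p of 0.0555.

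Ccnb1, cyclin B1, had 82.2 and 79.7 CPM in PARP1 WT against 78.4 and 76.8 in PARP1CKO, and 74.4 and 75.5 CPM in PARP2 WT against 73.7 and 73.5 in PARP2CKO. Cdk1 itself had 86.2 and 85.01 CPM in PARP1 WT against 84.6 and 80.7 in PARP1CKO, and 79.8 and 80.6 CPM in PARP2 WT against 81.9 and 80.5 in PARP2CKO. Both genes were highest in PARP1 WT, and the log2 fold changes for PARP1CKO were -0.06 (SE 0.037, 95% interval -9.50% to 1.81%, adjusted p = 0.577) for Ccnb1 and -0.05 (SE 0.039, 95% interval -9.25% to 2.72%, adjusted p = 0.649) for Cdk1, against -0.03 and 0.02 for PARP2CKO. Cdc25b, the phosphatase that starts activation of Cdk1 in late G2, was the exception, with 62.4 and 60.9 CPM in PARP1 WT against 66.5 and 64.2 in PARP1CKO, and 55.1 and 57.5 CPM in PARP2 WT against 57.3 and 55.1 in PARP2CKO. It was the only gene of the 43 with both PARP1CKO libraries above both PARP1 WT libraries, which 21% of all genes showed, and its fold change there was 0.08 (SE 0.044, 95% interval -1.04% to 13.5%, adjusted p = 0.497). Cdc25c, the related phosphatase at the lowest level of the 43 genes, had log2 fold changes of -0.14 in PARP1CKO and -0.11 in PARP2CKO, and Ccnb2, cyclin B2, of -0.06 in each.

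Cdc20 activates the anaphase-promoting complex and Ube2c is the ubiquitin-conjugating enzyme that works with it. Cdc20 had 34.1 and 34.0 CPM in PARP1 WT against 33.5 and 31.5 in PARP1CKO, and 32.1 and 30.4 CPM in PARP2 WT against 31.8 and 31.2 in PARP2CKO, and log2 fold changes of -0.07 (SE 0.053, 95% interval -12.2% to 3.62%, adjusted p = 0.648) in PARP1CKO and 0.01 in PARP2CKO. The value in PARP1CKO ran from -0.115 to -0.025 when single libraries were left out. Ube2c had 58.1 and 67.3 CPM in PARP1 WT against 71.9 and 63.9 in PARP1CKO, and 73.7 and 73.4 CPM in PARP2 WT against 69.2 and 70.7 in PARP2CKO. It ran against the other genes, since PARP1 WT held its lowest library, and its replicates differed by more than its groups in the PARP1 line. Its log2 fold change in PARP2 WT against PARP1 WT was 0.23 (SE 0.073, 95% interval 4.43% to 31.5%, adjusted p = 0.143), and it was called higher in the fit without the filter on low counts.

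Among the kinases, Plk1, which acts at mitotic entry and on the spindle, was nearly level, with 61.9 and 66.7 CPM in PARP1 WT against 67.2 and 61.8 in PARP1CKO, and 63.4 and 63.8 CPM in PARP2 WT against 64.02 and 61.5 in PARP2CKO. Its groups overlapped in both deletions, with log2 fold changes of 0.00 (SE 0.054, 95% interval -7.80% to 9.18%, adjusted p = 0.981) in PARP1CKO and -0.02 (SE 0.053, 95% interval -9.20% to 7.33%, adjusted p = 0.989) in PARP2CKO. Nek2, which separates the centrosomes, had 42.9 and 44.7 CPM in PARP1 WT against 41.8 and 39.1 in PARP1CKO, and 38.8 and 37.6 CPM in PARP2 WT against 34.2 and 35.2 in PARP2CKO. The 4 groups stood apart in that order without overlap. The log2 fold change of Nek2 was -0.12 in PARP1CKO (adjusted p = 0.434), -0.14 (SE 0.050, 95% interval -16.1% to -1.66%, adjusted p = 0.900) in PARP2CKO and -0.20 (SE 0.050, 95% interval -19.5% to -5.66%, adjusted p = 0.0766) in PARP2 WT against PARP1 WT. Aurka, the Aurora kinase of the spindle poles, had -0.11 and -0.08 in the 2 deletions.

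The chromosomal passenger complex corrects faulty attachments and guides cytokinesis. Its kinase Aurkb had 41.8 CPM in each PARP1 WT library against 42.6 and 41.1 in PARP1CKO, and 41.1 and 39.1 CPM in PARP2 WT against 41.9 and 40.3 in PARP2CKO. Its groups overlapped in both deletions, and the log2 fold changes were 0.00 (SE 0.047, 95% interval -6.86% to 7.97%, adjusted p = 0.981) in PARP1CKO and 0.03 (SE 0.046, 95% interval -4.78% to 10.2%, adjusted p = 0.977) in PARP2CKO. Birc5, which encodes survivin, the subunit that brings the complex to the centromere, had 81.8 and 81.0 CPM in PARP1 WT against 79.4 and 77.6 in PARP1CKO, and 78.7 and 79.8 CPM in PARP2 WT against 73.6 and 71.8 in PARP2CKO. The PARP2CKO libraries lay below the other 6. The fold change of Birc5 in PARP2CKO, -0.12 (SE 0.037, 95% interval -13.4% to -2.74%, adjusted p = 0.849), had the smallest unadjusted p of the 43 genes in that comparison, 0.00871. Incenp, the scaffold of the complex, had 0.04 in PARP1CKO and -0.06 in PARP2CKO.

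The spindle assembly checkpoint delays anaphase. Its kinase Bub1 had 77.5 and 73.5 CPM in PARP1 WT against 68.0 and 68.5 in PARP1CKO, and 68.3 and 68.7 CPM in PARP2 WT against 66.5 and 68.8 in PARP2CKO. Only PARP1 WT stood apart, and the other 3 groups overlapped. Ttk, the kinase Mps1 that starts the checkpoint signal, had the same shape, with 24.5 and 24.3 CPM in PARP1 WT against 21.3 and 22.4 in PARP1CKO, and 22.4 and 21.5 CPM in PARP2 WT against 21.6 and 22.5 in PARP2CKO. In PARP1CKO the log2 fold changes were -0.14 for Bub1 (adjusted p = 0.287) and -0.16 for Ttk (adjusted p = 0.364), and in PARP2CKO they were -0.02 and 0.01. The differences between these effects, 0.13 (SE 0.058, 95% interval -0.01 to 0.26, adjusted p = 0.657) for Bub1 and 0.16 (SE 0.080, 95% interval -0.02 to 0.34, adjusted p = 0.678) for Ttk, did not pass. Bub3, which carries Bub1 to the kinetochore, had 128 and 135 CPM in PARP1 WT against 131 and 128 in PARP1CKO, and 130 and 133 CPM in PARP2 WT against 130 and 124 in PARP2CKO, with overlap in PARP1CKO and log2 fold changes of -0.02 (SE 0.043, 95% interval -7.76% to 5.70%, adjusted p = 0.902) and -0.05 (SE 0.043, 95% interval -9.82% to 3.26%, adjusted p = 0.958). Mad2l1, the inhibitor of Cdc20, had -0.08 and -0.09, and Bub1b, BubR1, had -0.03 and -0.13 in the 2 deletions.

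Centromere and kinetochore genes included the 2 called genes. Cenpe (chr3:135212537-135273611), the kinesin that carries chromosomes to the spindle equator, had 116 and 113 CPM in PARP1 WT against 104 and 101 in PARP1CKO, and 101 CPM in each PARP2 WT library against 93.6 and 98.4 in PARP2CKO. Cenpf (chr1:189640606-189688086), a large protein of the outer kinetochore, had 72.03 and 70.7 CPM in PARP1 WT against 67.1 and 70.9 in PARP1CKO, and 62.9 and 62.2 CPM in PARP2 WT against 56.5 and 58.2 in PARP2CKO. In both genes the PARP2 WT libraries lay below the PARP1 WT libraries and the PARP2CKO libraries lay lowest. In PARP2 WT against PARP1 WT the log2 fold change was -0.19 (SE 0.041, 95% interval -17.7% to -6.33%, adjusted p = 0.0469) for Cenpe and -0.19 (SE 0.042, 95% interval -17.8% to -6.35%, adjusted p = 0.0476) for Cenpf. Over the alternatives the adjusted p ran from 0.0133 to 0.230 for Cenpe and from 0.0127 to 0.224 for Cenpf. For the deletions, Cenpe had -0.16 (SE 0.041, 95% interval -16.0% to -4.35%, adjusted p = 0.261) in PARP1CKO and -0.07 in PARP2CKO, while Cenpf had -0.05 in PARP1CKO, where its groups overlapped, and -0.13 (SE 0.042, 95% interval -14.1% to -2.14%, adjusted p = 0.888) in PARP2CKO.

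Spc25, a subunit of the Ndc80 complex that grips microtubules, had 30.6 and 27.5 CPM in PARP1 WT against 26.6 and 26.7 in PARP1CKO, and 24.2 and 24.4 CPM in PARP2 WT against 24.99 and 25.1 in PARP2CKO. It was the only gene with both PARP2CKO libraries above both PARP2 WT libraries, which 18.4% of all genes showed. Its log2 fold change in PARP2 WT against PARP1 WT, -0.26 (SE 0.059, 95% interval -23.7% to -8.05%, adjusted p = 0.0563), was the lowest of the 43, and PARP1 WT replicate 1 had its highest value. Its effects of -0.12 in PARP1CKO and 0.04 in PARP2CKO differed by 0.17 (SE 0.084, 95% interval -0.02 to 0.36, adjusted p = 0.684). This difference lay between 0.096 and 0.25 when single libraries were left out. The other subunits Ndc80 and Nuf2 had -0.12 and -0.10 in PARP1CKO and -0.05 and -0.06 in PARP2CKO. Cenpa, the histone variant of the centromere, had -0.13 in PARP1CKO and -0.02 in PARP2CKO.

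The kinesins (6 of 6) and spindle microtubule proteins (4 of 4) lay below 0 in both deletions, although none passed the test. The 3 cytokinesis genes also lay below 0 in both. Of the whole list of 43, 38 lay below 0 in PARP1CKO and 37 in PARP2CKO, against 47.9% and 50.7% of all genes. Kif20a, a kinesin of the central spindle, had 87.2 and 86.4 CPM in PARP1 WT against 79.1 and 75.9 in PARP1CKO, and 84.1 and 81.0 CPM in PARP2 WT against 81.4 and 77.8 in PARP2CKO. Its log2 fold change was -0.16 (SE 0.043, 95% interval -16.5% to -4.48%, adjusted p = 0.261) in PARP1CKO and -0.05 in PARP2CKO. Of its exons, 29.3% overlap exons of Cdc23 on the other strand, so part of its count is uncertain where strand was not used. Such overlaps also cover 15.1% of the exons of Kif4 (with Pdzd11), 12.5% of Ccna2 (with Exosc9) and 11.1% of Prc1 (with Rccd1). Kif2c, which takes microtubules apart at kinetochores, had 43.9 and 42.95 CPM in PARP1 WT against 42.7 and 41.2 in PARP1CKO, and 41.5 and 43.4 CPM in PARP2 WT against 39.3 and 39.0 in PARP2CKO. The PARP2CKO libraries lay below the other 6, with a log2 fold change of -0.12 (SE 0.044, 95% interval -14.0% to -1.18%, adjusted p = 0.940), against -0.05 in PARP1CKO. Kif23, Kif4, Kif11 and Kif20b had values between -0.14 and -0.09 in PARP1CKO and between -0.07 and -0.04 in PARP2CKO.

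Hmmr, a protein of the spindle poles, had 83.3 and 81.8 CPM in PARP1 WT against 75.8 and 73.0 in PARP1CKO, and 75.8 and 77.5 CPM in PARP2 WT against 71.8 and 73.5 in PARP2CKO. Each deletion lay below its control, and Hmmr had the smallest unadjusted p of the 43 genes in PARP1CKO, 0.00414, with a log2 fold change of -0.15 (SE 0.039, 95% interval -15.3% to -4.16%, adjusted p = 0.261) there and -0.08 in PARP2CKO. Nusap1, which bundles spindle microtubules, had 71.0 and 65.2 CPM in PARP1 WT against 61.8 and 61.2 in PARP1CKO, and 66.1 and 66.5 CPM in PARP2 WT against 60.3 and 62.1 in PARP2CKO. Its control libraries lay above its deletion libraries in both lines, with log2 fold changes of -0.15 in PARP1CKO (adjusted p = 0.315) and -0.12 (SE 0.047, 95% interval -14.2% to -0.667%, adjusted p = 0.954) in PARP2CKO. Tpx2, the activator of Aurora A, had -0.11 in each deletion, and Prc1, the crosslinker of the central spindle, -0.09 and -0.04. The cytokinesis genes Anln, Ect2 and Racgap1 had values between -0.08 and -0.01 in PARP1CKO and between -0.07 and -0.02 in PARP2CKO.

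Chromosome structure closed the list. Top2a, the topoisomerase that untangles sister chromatids, had 338 and 347 CPM in PARP1 WT against 319 and 318 in PARP1CKO, and 315 and 314 CPM in PARP2 WT against 313 and 320 in PARP2CKO. As with Bub1 and Ttk, PARP1 WT stood above the other 3 groups, which lay close together. Its log2 fold change was -0.11 (SE 0.038, 95% interval -12.6% to -1.46%, adjusted p = 0.358) in PARP1CKO and 0.01 (SE 0.038, 95% interval -5.36% to 6.69%, adjusted p = 0.995) in PARP2CKO, and the effects differed by 0.11 (SE 0.054, 95% interval -0.01 to 0.24, adjusted p = 0.667). Mki67 had 765 and 826 CPM in PARP1 WT against 755 and 760 in PARP1CKO, and 730 and 741 CPM in PARP2 WT against 696 and 704 in PARP2CKO. The 4 groups did not overlap, and its log2 fold changes were -0.07 (SE 0.047, 95% interval -11.5% to 2.59%, adjusted p = 0.597) in PARP1CKO and -0.07 (SE 0.047, 95% interval -11.6% to 2.46%, adjusted p = 0.954) in PARP2CKO. Leaving out single libraries moved the value of Mki67 in PARP1CKO to between -0.127 and -0.017. The condensin subunits Smc2 and Smc4 had -0.12 and -0.13 in PARP1CKO and -0.08 and -0.07 in PARP2CKO.

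Other genes of the cycle were read from the same fits. Of 99 further mitosis genes, none passed in either deletion in edgeR's quasi-likelihood test, DESeq2 or the likelihood-ratio test. An unadjusted p under 0.05 was reached by 12 and 9, against 11.3% of all genes in PARP1CKO and 4.83% in PARP2CKO. Of the 99, 68 lay below 0 in PARP1CKO and 79 in PARP2CKO, against 47.9% and 50.7% of all genes. The median was -0.04 in each. Between the control groups Cdkn3, a phosphatase that acts on cyclin-dependent kinases, was lower in PARP2 WT, with 11.6 and 11.8 CPM there against 15.7 and 14.9 in PARP1 WT (log2 fold change -0.38, adjusted p = 0.0197). Sgol2, which protects centromere cohesion, was also lower there, with a log2 fold change of -0.23 (adjusted p = 0.0267), while DESeq2 called only Cdkn3 of the 99 and the likelihood-ratio test called 4 lower, Cdkn3, Sgol2, Oip5 and Shcbp1. The 2 calls of the quasi-likelihood test stand against 1.24% of all genes called lower between the controls. In DESeq2 1.71% of all genes were called lower there, and in the likelihood-ratio test 2.89%. Of 20 regulators of mitotic transcription none passed in any comparison in the same tests, 3 had an unadjusted p under 0.05 in PARP1CKO and 1 in PARP2CKO, and the medians were -0.03 in PARP1CKO and -0.02 in PARP2CKO. Foxm1, the activator of G2/M genes, had 90.4 and 89.7 CPM in PARP2 WT against 84.6 and 83.8 in PARP2CKO, a log2 fold change of -0.10 with an adjusted p of 0.954, the lowest of the 20 in that comparison, and 0.03 (adjusted p = 0.780) in PARP1CKO. Of 30 genes of G1/S and DNA replication none passed either, 2 and 1 had an unadjusted p under 0.05 in the deletions, and their medians of -0.02 in PARP1CKO and 0.01 in PARP2CKO lay nearer to 0 than those of the 43 mitosis genes. Whether the lists differ was not tested. The shares of all genes at an unadjusted p under 0.05, 11.3% in PARP1CKO and 4.83% in PARP2CKO, apply to each list. Of 13 cell cycle inhibitors none passed in the quasi-likelihood test, and 3 and 2 had an unadjusted p under 0.05 in the deletions. DESeq2 called Btg1 lower in PARP1CKO. Between the controls the likelihood-ratio test called Ccng2 (-0.29, adjusted p = 0.0702 in the quasi-likelihood test) lower and Gadd45b (0.40, adjusted p = 0.0918 in the quasi-likelihood test) higher. The medians of the 13 were 0.01 in PARP1CKO, -0.07 in PARP2CKO and -0.17 in PARP2 WT against PARP1 WT.

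**Figure D5:**
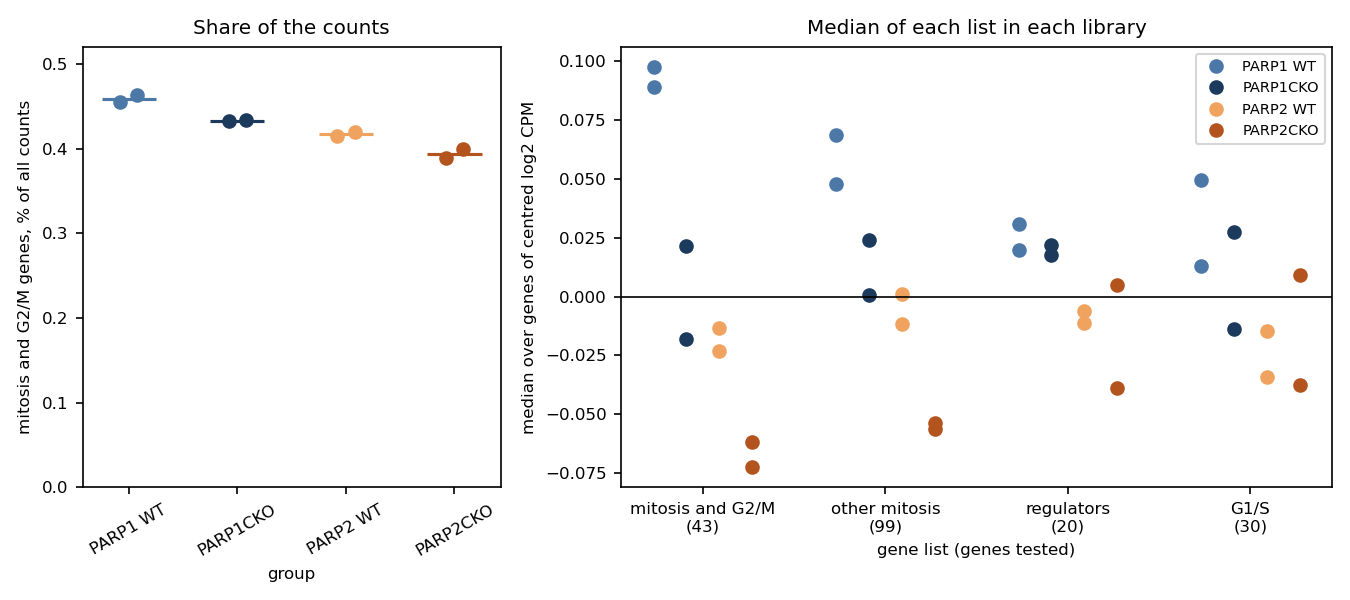
Left, share of all counts taken by the 43 mitosis and G2/M genes, with 1 point per library and the group mean as a line. Right, median over the genes of each list of log2 CPM minus the mean of the gene, with 1 point per library; for the 43 genes the PARP1 WT libraries lie at 0.09 and 0.10 and the PARP2CKO libraries at -0.07 and -0.06.

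Markers of other cells also differed between the groups. The summed level of 8 macrophage markers was lowest in PARP1 WT, at 3888 to 3996 CPM, and highest in PARP2CKO, at 4304 to 4552 CPM. PARP1CKO, at 4008 to 4236 CPM, and PARP2 WT, at 4109 to 4263 CPM, lay between them and overlapped. Of the 8, 7 had a fold change above 0 and 1 below in PARP1CKO, and 5 above and 3 below in PARP2CKO. In PARP2 WT against PARP1 WT 7 lay above 0 and 1 below. None of the 8 markers was called in either deletion by the tests run. An unadjusted p under 0.05 was reached by 1 in PARP1CKO, against 11.3% of all genes, and by 3 in PARP2CKO, against 4.83%. Mertk was called higher between the controls (log2 fold change 0.76, adjusted p = 0.0053), as was C1qb (0.21, adjusted p = 0.150) by DESeq2. The summed level of 5 markers of hematopoietic progenitors ran in the order of the mitosis genes, with 101 to 108 CPM in PARP1 WT, 83.3 to 95.3 in PARP1CKO, 77.1 to 81.2 in PARP2 WT and 69.99 to 76.6 in PARP2CKO. The median over the 5 genes did not keep this order, and was 0.25 in PARP1CKO replicate 2 against 0.22 and 0.19 in PARP1 WT, on the log2 CPM scale relative to the mean of each gene. In PARP1CKO 3 of the 5 were below 0 and 2 above, with a median log2 fold change of -0.01. None of these 5 was called in either deletion in the quasi-likelihood test, and Cd34 (log2 fold change -0.60, adjusted p = 0.222 in PARP1CKO) was called lower there by DESeq2 and the likelihood-ratio test. Between the controls Kit was called lower in PARP2 WT (log2 fold change -0.70, adjusted p = 0.0043), and Cd34 (-0.41, adjusted p = 0.151) was called lower there by DESeq2. Early granule markers of neutrophils, a list of 5, were higher in the PARP2 line, with 359 to 403 CPM in PARP2 WT against 275 to 311 in PARP1 WT and 2 of the 5 called (3 by DESeq2 and 4 by the likelihood-ratio test), where 1.92% of all genes were called higher, and B cell markers were lower there, with 9.07 to 10.7 against 27.6 to 32.3 CPM and all 5 tested markers called, where 1.24% of all genes were called lower. Late granule markers, a list of 8, lay at 3212 to 3452 CPM in PARP2 WT against 2794 to 3188 in PARP2CKO, and both of these overlapped with the PARP1 line. In PARP2 WT against PARP1 WT 4 of the 8 were above 0 and 4 below, with a median log2 fold change of 0.09. Retnlg was called lower there (log2 fold change -0.79, adjusted p = 0.0092), while Camp (0.42, adjusted p = 0.0805) was called higher by DESeq2 and the likelihood-ratio test. In PARP2CKO Retnlg had -0.61 (adjusted p = 0.371) and was called lower by DESeq2 and the likelihood-ratio test. Erythroid markers lay at 9.69 to 12.1 CPM in PARP1CKO against 7.05 to 7.21 in PARP1 WT, where the likelihood-ratio test called Hba-a1 and Hba-a2, near-identical genes with the same count in every library, higher, and at 3.84 to 4.63 CPM in PARP2 WT, where both were called lower than in PARP1 WT. Basophil and mast cell markers lay at 12.2 to 12.9 CPM in PARP1 WT, 9.60 to 13.8 in PARP1CKO, 7.11 to 7.86 in PARP2 WT and 5.41 to 6.86 in PARP2CKO. Both PARP2 WT libraries lay below both PARP1 WT libraries in all 5 of them, against 25.2% of all genes. Of the 5, 3 were called lower by the likelihood-ratio test, against 2.89% of all genes, and 1 by DESeq2, against 1.71%. None was called by the quasi-likelihood test, against 1.24%, where 4 were lower at an unadjusted p under 0.05, against 8.63%. Summed levels stayed low for stromal markers, at or below 3.12 CPM, of which the likelihood-ratio test called Cxcl12 lower in PARP2 WT (log2 fold change -1.12, adjusted p = 0.131 in the quasi-likelihood test), and for T and NK cell markers, at or below 0.29 CPM. No marker gene found in the table was at 0 in both libraries of a group. The part of any of these cells in the levels of the mitosis genes was not tested.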

How the data were processed

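The deposited values are raw counts per gene. Per the labels and the methods of the study, the authors made them from single-end reads of stranded total RNA libraries, with 4 µg of RNA for each library, which were trimmed, mapped to mm10 with TopHat 2.0.12, marked for duplicates with Picard 1.127 and counted with featureCounts. The annotation and the strand setting are not given in the sources used here.

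Genes that passed filterByExpr (13197) were fitted with edgeR 4.0.16 in 1 model of the 8 libraries, with TMM factors and a mean per group. Contrasts were tested by the quasi-likelihood test, adjusted by Benjamini-Hochberg over all genes, at a threshold of 0.05, and fold changes, SEs and 95% intervals are from this model. Other tools were R 4.3.3, DESeq2 1.42.0, Python 3.11.15, pandas 2.3.3 and matplotlib 3.10.9. The methods of the study name edgeR, a false discovery rate, and FPKM as input, whereas counts were used here. Replicates differed beyond sampling noise, with a mean chi-square over all genes of at least 8.56 a gene in each group. For the mitosis genes described here the mean was 5.49 in PARP1 WT, 2.45 in PARP1CKO, 2.09 in PARP2 WT and 5.47 in PARP2CKO. Every library was taken as a replicate of its own. The steps were tested on simulated data, with changes larger than those of the mitosis genes in either deletion. That test does not show whether changes as small as theirs would be detected.

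The members, roles and lists were chosen with earlier results of these data known. All 43 genes may be named. Values of each library are given for genes called, for the 5 with the smallest unadjusted p in a comparison and for Mki67, Top2a, Ccnb1, Cdk1, Plk1, Aurkb, Cdc20, Bub3 and Cdc25b. Of other lists, genes called and at most 3 a comparison are named; Foxm1 is among these, and Btg1, Gadd45b, Ccng2, Cd34, C1qb, Cxcl12, Camp, Oip5, Shcbp1, Retnlg in PARP2CKO and the globin genes in PARP1CKO were named after their values were seen. Lengths are unions of GENCODE M21 exons on GRCm38, the mm10 assembly, which 12525 tested genes had. Promoters are from RefSeq GRCm38.p6, and 21 of the 36 had the 50 bases after their start within a GENCODE transcript of the gene.

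Alternatives were the size factors of DESeq2, plain library size, no filter, 1 CPM in 2 libraries, DESeq2, the likelihood-ratio test, a replicate block, the 4 libraries of a comparison alone, and leaving out each library in turn. The number of genes below 0 was added as a result after the data were seen.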

Additional observations from a re-analysis of the deposited data

How the results depend on the processing

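No alternative called any of the 43 genes in either deletion or in the difference between them, and none reversed a median. In PARP1CKO the median log2 fold change lay between -0.114 (without PARP1CKO replicate 1) and -0.075 (without PARP1CKO replicate 2) when single libraries were left out, and 35 to 40 genes lay below 0. In PARP2CKO it was -0.086 with library size in place of TMM, where the median of all genes was -0.03, and 36 to 41 genes lay below 0 over all alternatives. For the difference between the effects it lay between 0.0094 (without PARP1CKO replicate 2) and 0.050, with 8 (without PARP1 WT replicate 1) to 17 genes below 0. In PARP2 WT against PARP1 WT the median was -0.146 with library size, where the median of all genes was -0.04. Library size called 5 of the 43, all lower, against 3.11% of all genes in both directions together. The likelihood-ratio test also called 5, all lower, against 6.9% of all genes. With no filter 5 were called, of which Ube2c was higher, against 4.97%. The replicate block called 0, against 2.39%, and the fit of only the 4 libraries 0, against 2.98%. The calls of the main test crossed the threshold when single libraries were left out, where the median lay between -0.115 and -0.0997. Over all genes the quasi-likelihood test called 14 in PARP1CKO, 7 in PARP2CKO, 2 in the difference and 417 between the controls, against 86, 27, 45 and 551 with DESeq2, 146, 39, 72 and 910 with the likelihood-ratio test and 101, 26, 61 and 872 with no filter. The cause was not tested.

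Genes whose value was near 0 changed sign. With library size, values in PARP1CKO were -0.00056 for Plk1 and -0.0012 for Aurkb, in PARP2CKO -0.019 for Top2a, -0.0086 for Cdk1, -0.016 for Cdc20 and -0.020 for Ttk, in the difference -0.019 for Ccnb2, -0.019 for Tpx2, -0.00061 for Anln and -0.0029 for Ect2, and between the controls -0.035 for Bub3. With no filter Tpx2 was -3.9e-05 in the difference. With DESeq2's size factors Cdc25b was 0.0014 in PARP2CKO and Mki67 0.0029 in the difference, and with DESeq2 they were 0.0014 and 0.0030. When single libraries were left out, values in PARP1CKO ran from -0.058 to 0.062 for Plk1, from -0.023 to 0.029 for Aurkb and from -0.055 to 0.014 for Bub3. In PARP2CKO they ran from -0.027 to 0.049 for Cdc20, from -0.033 to 0.032 for Cdc25b, from -0.0090 to 0.023 for Top2a and from -0.048 to 0.0098 for Plk1. In the difference they ran from -0.054 to 0.056 for Mki67, from -0.080 to 0.039 for Plk1, from -0.067 to 0.0044 for Bub3 and from -2.2e-05 to 0.067 for Aurkb. Between the controls they ran from -0.031 to 0.038 for Bub3 and from -0.068 to 0.037 for Plk1. Some values that kept their sign in these fits moved as well. In PARP1CKO Cdk1 ran from -0.086 to -0.018. In PARP2CKO the range was -0.086 to -0.018 for Bub3, 0.00092 to 0.071 for Aurkb, 0.0042 to 0.030 for Cdk1 and -0.036 to -0.014 for Ccnb1.

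The replicate numbers gave no clear sign of pairing. Same-numbered libraries had deviations that correlated at -0.13 in the PARP1 line and 0.15 in the PARP2 line, and between -0.08 and 0.06 otherwise. With 2 libraries a group these values cannot show whether libraries were paired. The study states that its controls were littermates, and the labels do not tie them to replicate numbers. With a replicate block 14 genes were called in PARP1CKO, 6 in PARP2CKO, 3 in the difference and 315 between the controls, of which 0 were among the 43. At 2 libraries a group, the median standard error of a fold change of these genes in PARP1CKO was 0.044.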
